A study of Mus musculus with 9 samples.

Results

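Expression of 9 genes of mineralized bone was measured by RNA-Seq in spontaneous osteosarcomas from 2 genetically engineered mouse models. The genes are the SIBLING phosphoproteins Spp1, Ibsp, Dmp1 and Mepe, the osteocyte and mineralization genes Phex, Sost, Fgf23 and Pdpn, and the kinase gene Fam20c. They were chosen by gene symbol, and all 9 were found among the 55367 genes of the deposited table. Tumors of the p53-driven model (labeled Col2.3-Cre/TrpP53fl/+, n = 4) carried Cre under the osteoblast-specific Col2.3 promoter and 1 floxed Trp53 allele. Tumors of the Myc-knockin model (labeled Cre with Lox-Stop-Lox;(LSL)-c-MycT58A;p53fl/+, n = 5) came from a cross of those mice with mice carrying the MycT58A transgene behind a Lox-Stop-Lox cassette. Both groups therefore share the Col2.3-Cre driver and the floxed Trp53 allele. Ages and sexes are not given in the labels. Whole tumors were resected, and 1 library was sequenced per tumor, so each value averages over the tumor cells, bone matrix cells and stroma in a piece. In such bulk RNA, fewer cells of a type and less RNA per cell cannot be told apart.

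The SIBLING proteins are secreted, acidic, integrin-binding proteins that osteoblasts and osteocytes place in mineralizing matrix, and their genes lie side by side on 1 chromosome. The kinase encoded by Fam20c phosphorylates them in the secretory pathway, and the membrane protease encoded by Phex cleaves peptides derived from them. Dmp1, Phex and Mepe belong to the osteocyte program that sets the output of the phosphate-lowering hormone Fgf23, whereas Sost encodes sclerostin, the osteocyte inhibitor of Wnt signaling, and Pdpn marks cells that are becoming embedded in bone.

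In these tumors 1 of the 9 genes, Fam20c, was called different between the genotypes, and it was lower in Myc-knockin tumors. The test could be made for 7 of the 9 genes, and 5.27% of all tested genes in the table were called. The 4 SIBLING genes and Phex were not called, and they varied widely among tumors of the same genotype. The Myc-knockin tumor M624 had almost no Dmp1 and Phex and little Ibsp, whereas the other 4 Myc-knockin tumors held all 3 at levels whose ranges overlapped those of the p53-driven tumors. Mepe, Sost and Fgf23 were near the floor of detection in many tumors.

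The table names the tumors only by column, F187, F325, F331 and F368 for the p53-driven model and M351, M408, M9, M624 and M664 for the Myc-knockin model. M351, M9 and M664 were counted as Myc knockin by the letter M alone, and the labels do not say more about how the tumors are related, so p values measure the spread between these samples. Between 2716322 and 17073285 counts fell on genes, and 3 counts, taken as the floor of detection, corresponded to 0.114 CPM in M624 and up to 2.39 CPM in M9. CPM here is edgeR's counts relative to the library size after TMM scaling. In F187, M351, M408 and M9, 23.2% to 81.0% of the counts fell on 12 satellite-repeat genes, against at most 0.0242% in the other 5 libraries. M624 and M664 held 5.33 and 9.32 CPM of Rn7sk, which has no poly(A) tail, against at least 8858 CPM elsewhere (relative to counts outside the satellite genes). Results were therefore repeated without each of these sets. All Myc-knockin libraries belonged to these sets, whereas F325, F331 and F368 of the p53-driven libraries belonged to neither. Library kind was thus largely tied to genotype. Each repeat still compared unlike libraries, so the repeats cannot separate genotype from library kind. Myc followed the labels, with 43.5 to 67.1 CPM in p53-driven and 144 to 1045 CPM in Myc-knockin tumors.

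The 4 SIBLING genes measured here lie on the plus strand of chromosome 5 of mm10, in a cluster that runs with the tooth gene Dspp over 270.339 kb, from 104170712 to 104441050. Dmp1 occupies 104202613 to 104214102, Ibsp 104299171 to 104311469, Mepe 104325329 to 104338611 and Spp1 104435118 to 104441050. Phex lies on the minus strand of chromosome X from 157162075 to 157415312. Sost (chromosome 11, 101962458 to 101967015, minus strand), Fgf23 (chromosome 6, 127072902 to 127081408, plus strand) and Pdpn (chromosome 4, 143267431 to 143299564, minus strand) lie elsewhere. The sequences just before these 5 genes are shown because Ibsp, Dmp1 and Phex were low together in 1 tumor. They come from RefSeq (GRCm38.p6, in which all 9 genes were matched), run 5′ to 3′ on the strand of the gene, and end before its first annotated exon in GENCODE. Capitals mark the 6-base letters TGTGGT or its complement ACCACA, the core of the motif of the osteoblast factor Runx2, and TAATTA, the core of many homeobox motifs. For Dmp1, the start nearer to the coding exons is shown.
Dmp1 (chr5:104202367-104202612, plus strand, 246 bases): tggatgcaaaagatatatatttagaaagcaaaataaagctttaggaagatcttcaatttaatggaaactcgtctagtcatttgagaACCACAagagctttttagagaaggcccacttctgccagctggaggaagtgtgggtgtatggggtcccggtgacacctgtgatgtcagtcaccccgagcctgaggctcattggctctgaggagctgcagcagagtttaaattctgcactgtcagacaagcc
Ibsp (chr5:104299037-104299170, plus strand, 134 bases): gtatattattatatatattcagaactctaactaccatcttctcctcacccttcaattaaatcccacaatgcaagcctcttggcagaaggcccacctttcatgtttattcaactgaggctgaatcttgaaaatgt
Mepe (chr5:104325079-104325328, plus strand, 250 bases): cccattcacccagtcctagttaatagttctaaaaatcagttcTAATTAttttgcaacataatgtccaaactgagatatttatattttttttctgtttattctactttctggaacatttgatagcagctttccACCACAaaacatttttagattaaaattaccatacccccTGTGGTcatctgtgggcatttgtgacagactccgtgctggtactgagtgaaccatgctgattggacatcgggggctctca
Spp1 (chr5:104434861-104435110, plus strand, 250 bases): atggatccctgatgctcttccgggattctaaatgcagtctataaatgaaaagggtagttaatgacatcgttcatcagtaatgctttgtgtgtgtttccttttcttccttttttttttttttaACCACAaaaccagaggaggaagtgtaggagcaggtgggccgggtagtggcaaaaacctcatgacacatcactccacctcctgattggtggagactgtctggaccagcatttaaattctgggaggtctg
Phex (chrX:157415313-157415536, minus strand, 224 bases): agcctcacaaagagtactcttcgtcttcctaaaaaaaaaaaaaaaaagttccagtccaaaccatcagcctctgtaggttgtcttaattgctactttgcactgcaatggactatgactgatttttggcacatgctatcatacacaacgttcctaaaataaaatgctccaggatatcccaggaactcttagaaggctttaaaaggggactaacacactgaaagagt

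The Runx core, on either strand, stood in the 250 bases before a start of Dmp1 (first base at position -164), of Mepe (at -118 and -80) and of Spp1 (at -128), where the base before the start is -1. It was found in 3 of the 11 windows of the 9 genes, against 14.0% of all 32817 mouse windows of this length. TAATTA stood before Mepe and before a second, downstream start of Spp1, and 4.85% of all windows hold it. The E-box CACGTG, which reads the same on both strands and was found in 6.02% of all windows, stood before the upstream start of Dmp1 (at -249 and -44) and before Pdpn (at -144). No listed motif stood in the windows of Ibsp, Phex, Sost, Fgf23 or Fam20c, which says only that these letters are not in them.

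Spp1, which encodes osteopontin, a bone matrix protein that macrophages and osteoclasts also make, had 3822, 386, 2209 and 944 CPM in F187, F325, F331 and F368. In M351, M408, M9, M624 and M664 it had 750.3, 2311, 419.9, 207 and 1237 CPM. The groups overlapped over most of their range, with the lowest p53-driven tumor, F325, below 4 of the Myc-knockin tumors. The log2 fold change of Myc-knockin relative to p53-driven tumors was -0.90 (standard error 0.77, 95% interval -2.59 to 0.79, adjusted p = 0.482 from the quasi-likelihood test of edgeR, with the Benjamini-Hochberg method applied across 15365 genes). The summed level of 12 osteoclast markers was 3018 to 14998 CPM in p53-driven and 199 to 2716 CPM in Myc-knockin tumors, and that of 12 macrophage markers was 999 to 1639 and 411 to 1239 CPM. None of these markers was at 0 in every tumor, and their part in the level of Spp1 was not tested. The unconfirmed transcript Gm42793 shares 309 exon bases with Spp1 on the same strand, and it held 1 to 46 counts per tumor against 527 to 28657 for Spp1.

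Ibsp encodes bone sialoprotein, a nucleator of mineral made by osteoblasts. Its level was 892, 1520.3, 3676 and 3946 CPM in F187, F325, F331 and F368. The Myc-knockin values, for M351, M408, M9, M624 and M664, were 2939, 1018, 535, 34.1 and 2867 CPM. M351, M408 and M664 lay within the p53-driven range, M9 lay below it and M624 lay 15.7-fold below M9, the next lowest tumor. For the genotypes the log2 fold change was -0.76 (standard error 0.93, 95% interval -2.81 to 1.29, edgeR adjusted p = 0.635).

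Dmp1, an osteocyte matrix protein whose loss is known to cause phosphate wasting with raised Fgf23, had 345, 58.5, 361 and 94.0 CPM in F187, F325, F331 and F368. Its level in M351, M408, M9, M624 and M664 was 139.7, 95.6, 74.1, 0.495 and 37.9 CPM. The 13 counts of M624 stood against 877 in M664, which was sequenced to a similar depth. Between the groups the log2 fold change was -1.64 (standard error 0.99, 95% interval -3.81 to 0.53, edgeR adjusted p = 0.313). Without the 4 libraries with satellite reads, 3 p53-driven and 2 Myc-knockin tumors remained, which did not overlap in Dmp1, with a log2 fold change of -3.14 (edgeR adjusted p = 0.195). The 2 were M624 and M664, the libraries low in Rn7sk, so genotype and library kind coincided in that fit. In it 27.9% of all tested genes were called, and the share of all genes without overlap was not computed. When M624 and M664 were dropped, the log2 fold change of Dmp1 was -1.01 (edgeR adjusted p = 0.338).

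Mepe, a substrate of Phex that carries a mineral-inhibiting peptide, was the scarcest of the 7 tested genes. It had 0, 5, 41 and 0 counts in F187, F325, F331 and F368, or 0, 0.389, 3.55 and 0 CPM, where 3 counts corresponded to 1.18 CPM in F187 and 0.365 CPM in F368. The counts in M351, M408, M9, M624 and M664 were 18, 172, 1, 7 and 202, or 11.1, 31.5, 0.797, 0.267 and 8.72 CPM. M351, M408 and M664 stood above every p53-driven tumor, whereas M9 and M624 lay among them. The fitted log2 fold change was 3.27 (standard error 1.43, 95% interval 0.12 to 6.42, unadjusted p = 0.0429, adjusted p = 0.171 in edgeR), which depends on the prior count because 2 p53-driven libraries held no read. The estimate was 5.79 without F331 and 1.76 without the 4 libraries with satellite reads. When M351, M408 or M664 was left out singly, Mepe failed the count filter and was not tested. It thus entered the test largely through tumors in which it was high, so its interval and p are no support for a difference. In M351, where 18 reads were counted, 1.89 background reads were expected from reads on chemosensory receptor genes scaled to exon length. Dspp, the dentin gene at the start of the cluster, had no count in the p53-driven tumors and 18, 3, 11, 0 and 1 counts in M351, M408, M9, M624 and M664, of which 4.98 in M351 and 5.51 in M9 were expected as background.

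**Figure D1:**
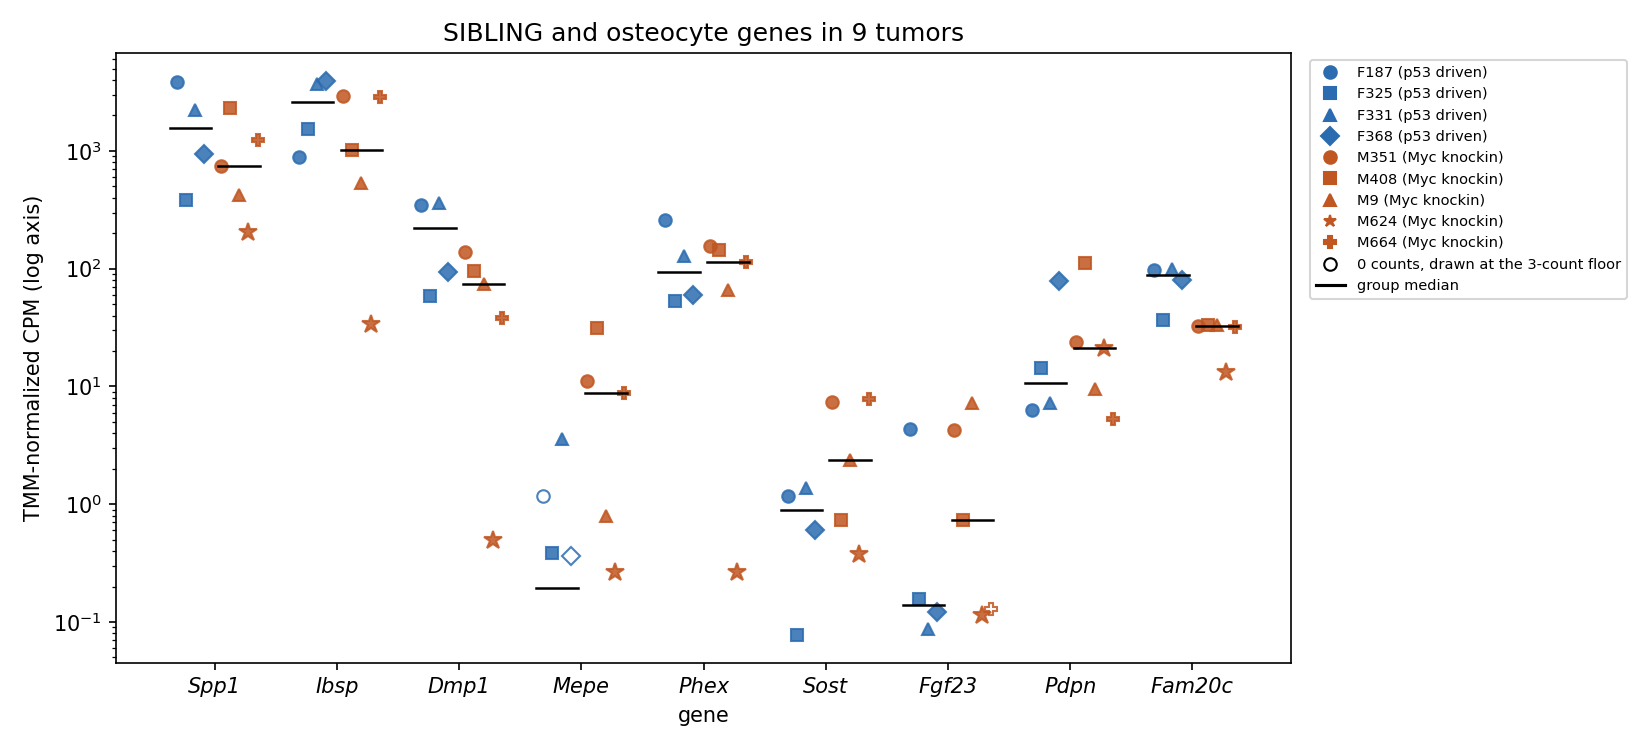
TMM-normalized CPM (log axis) of the 9 genes in each of 4 p53-driven (blue) and 5 Myc-knockin (orange) tumors. Each symbol is a tumor, black lines are group medians computed with 0 as 0, and open symbols are tumors with 0 counts drawn at their 3-count floor. The star of M624 lies at 0.495 CPM for Dmp1 and 0.267 CPM for Phex, below every other tumor, and Fam20c is the gene whose groups do not overlap.

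Levels were compared between genes per kilobase of exon. Ibsp and Spp1 were the most abundant of the 9 genes in both groups, with medians of 1256 and 957 CPM per kb in p53-driven and 492 and 455 CPM per kb in Myc-knockin tumors. Dmp1 followed with medians of 79.4 and 26.8 CPM per kb and Phex with 14.9 and 18.3 CPM per kb. The ranges of Spp1 and Ibsp overlapped in each group, so their order did not exceed the spread between tumors. Fam20c (medians 13.5 and 4.95 CPM per kb) and Pdpn (5.94 and 11.7 CPM per kb) had ranges that overlapped those of Phex. Mepe had a median of 0.116 CPM per kb in p53-driven and 5.19 CPM per kb in Myc-knockin tumors, and Sost and Fgf23 had medians of at most 1.16 CPM per kb.

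The mixture of SIBLING transcripts differed from tumor to tumor within a genotype. Spp1 made up 80.7%, 23.7%, 41.2% and 22.8% of the summed level per kb of Spp1, Ibsp, Dmp1 and Mepe in F187, F325, F331 and F368. In M351, M408, M9, M624 and M664 its share was 23.5%, 72.0%, 47.1%, 88.2% and 34.8%. Each genotype thus held tumors with chiefly Spp1 and tumors with chiefly Ibsp. The ratio of Spp1 to Ibsp per kb ranged from 0.300 to 5.38 in p53-driven and from 0.320 to 7.60 in Myc-knockin tumors (two-sided exact permutation test on log2 ratios, p = 0.540). The other pairs of genes that were compared, Dmp1 with Ibsp, Dmp1 with Spp1, Phex with Dmp1, and Fam20c with Ibsp and with Spp1, had exact permutation p values from 0.127 to 0.889. The ratio of Phex to Dmp1 per kb was 1.33 in M664 and 0.156 to 0.666 in the other tumors. The summed level itself was 991 to 3251 CPM per kb in p53-driven tumors, 541 to 2156 CPM per kb in M351, M408, M9 and M664, and 142 CPM per kb in M624.

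**Figure D2:**
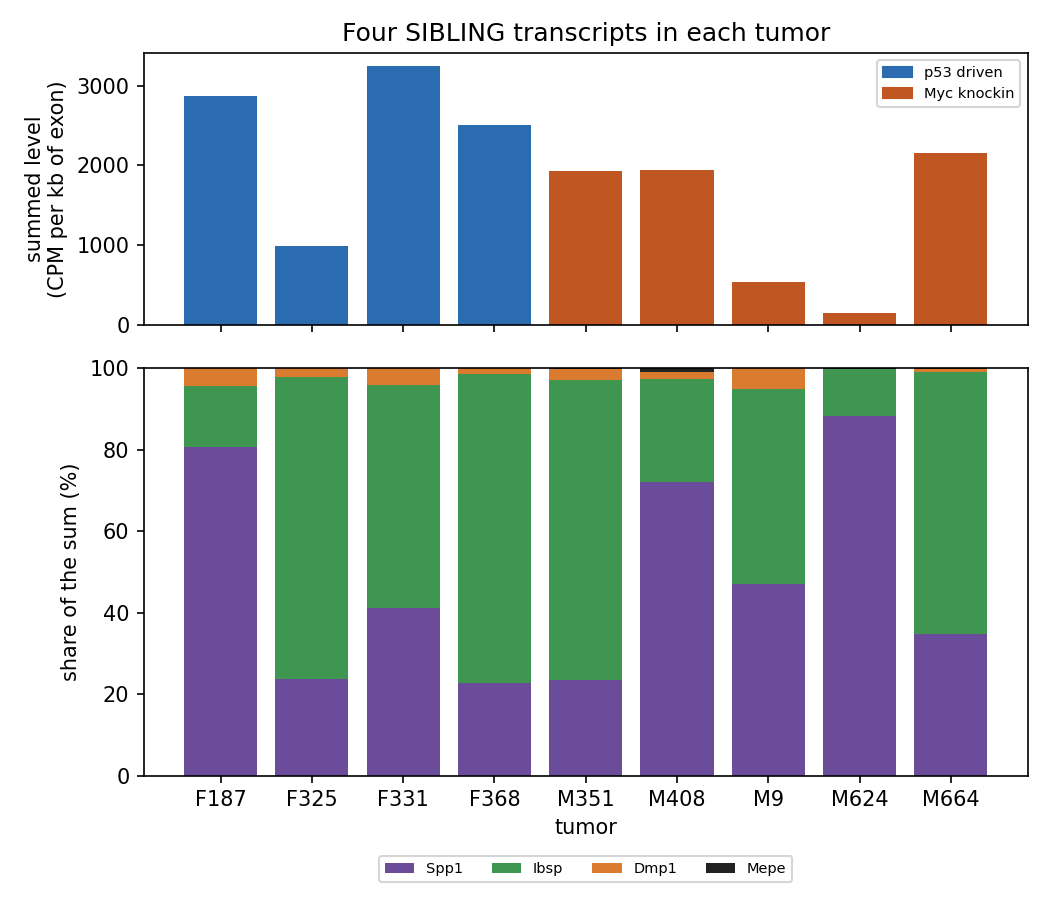
Summed level of Spp1, Ibsp, Dmp1 and Mepe in CPM per kb of exon (upper bars) and the share of each gene in that sum in percent (lower bars) for each tumor, without error bars because each bar is 1 library. Spp1 reaches 80.7% in F187, 72.0% in M408 and 88.2% in M624, so both genotypes hold tumors led by Spp1.

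Fam20c encodes the Golgi kinase that phosphorylates SIBLING and other secreted proteins, and it lies on chromosome 5 from 138754514 to 138810077, apart from the SIBLING cluster. Its level was 98.0, 36.7, 99.0 and 80.2 CPM in F187, F325, F331 and F368. In M351, M408, M9, M624 and M664 it was 32.6, 33.0, 33.5, 13.2 and 32.1 CPM. Of the Myc-knockin tumors, 4 lay between 32.1 and 33.5 CPM, M624 lay below them, and the lowest p53-driven tumor, F325, lay only slightly above. Fam20c had a log2 fold change of -1.45 (standard error 0.37, 95% interval -2.26 to -0.64, edgeR adjusted p = 0.0468), and was called lower. The means were 28.9 ± 8.78 CPM (SD, n = 5) and 78.5 ± 29.2 CPM (SD, n = 4), and the exact permutation test on log2 CPM gave p = 0.0159, the smallest that 5 tumors against 4 allow.

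Calls required edgeR's adjusted p to fall under 0.05 with more than a 1.5-fold difference. By that rule 1 of the 7 tested genes was called lower, where 3% of all tested genes were called lower (461 of 15365). None was called higher by edgeR, DESeq2 or limma-voom, where edgeR called 2.26% of all tested genes higher. By unadjusted edgeR p values under 0.05 Fam20c was lower and Mepe higher (26.8% of all tested genes passed that level in either direction). Mepe passed the count filter largely through Myc-knockin tumors in which it was high. Of the 9 genes, 1 had groups that did not overlap, compared with 13% of all tested genes. The median log2 fold change of the 7 genes was -0.76 and that of all tested genes 0.14. Both shares rest on 1 gene and are not a result about the 9 genes as a group.

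The call of Fam20c was at the edge of the threshold. The log2 fold change was negative in all 19 alternative fits, from -1.69 to -1.19, but the adjusted p was above 0.05 in 15 of them. It was 0.00597 in DESeq2, which called 17.2% of all tested genes, and 0.0609 in limma-voom, which called 10.8%. Dropping M624 and M664 gave a log2 fold change of -1.19 (edgeR adjusted p = 0.0854, with 4.61% of genes called in that fit). Without M624 alone it was -1.20 (edgeR adjusted p = 0.0706). Without the 4 libraries with satellite reads it was -1.65 (edgeR adjusted p = 0.0793, with 27.9% of genes called). In M9 and M351, 8.19 of 42 and 7.41 of 53 reads on Fam20c were expected as background, and with background subtracted the groups overlapped, with a log2 fold change of -1.41 (edgeR adjusted p = 0.0473).

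**Figure D3:**
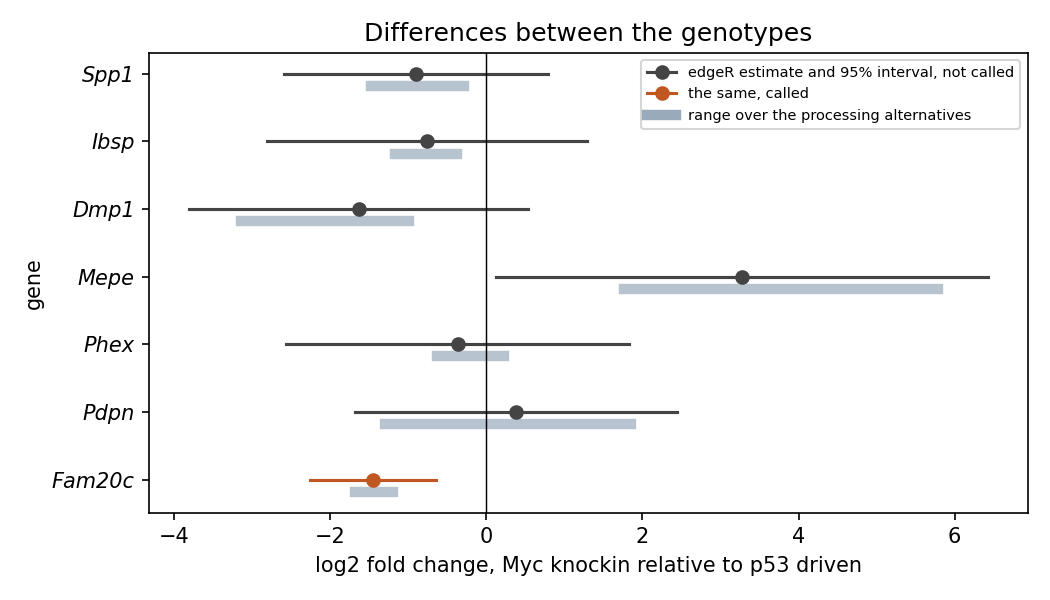
Log2 fold change of Myc-knockin relative to p53-driven tumors for the 7 tested genes (points), with 95% intervals from edgeR (thin lines) and the range of estimates over up to 19 processing alternatives (thick pale lines). The interval of Fam20c runs from -2.26 to -0.64, the ranges of Phex and Pdpn cross 0, and Mepe has the widest interval, from 0.12 to 6.42.

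Among the other kinases of the secretory pathway, Fam20b, which phosphorylates xylose in the linker of proteoglycans, was called lower with a log2 fold change of -1.06 (standard error 0.25, edgeR adjusted p = 0.0411). Its level was 70.6 to 89.6 CPM in p53-driven and 27.1 to 51.0 CPM in Myc-knockin tumors. Fjx1 was called higher, with a log2 fold change of 2.28 (standard error 0.52, edgeR adjusted p = 0.0365), and it had 0.851 to 4.74 CPM in p53-driven and 8.97 to 19.0 CPM in Myc-knockin tumors. The other 3 of the 5 kinases on this list, Fam20a, Pkdcc and Pomk, were not called. For Fam20b and for Fjx1 the groups did not overlap.

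Phex, on the X chromosome, overlapped between the genotypes except in 1 tumor. It had 258, 53.3, 128 and 60.1 CPM in F187, F325, F331 and F368. It had, in M351, M408, M9, M624 and M664, 156, 145, 66.1, 0.267 and 115 CPM. M624 held 7 reads on Phex, whereas M664 held 2664. For Phex the log2 fold change was -0.37 (standard error 1.00, 95% interval -2.57 to 1.83, edgeR adjusted p = 0.848), and without M624 it was 0.0076 (edgeR adjusted p = 0.994).

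Fgf23 was not tested because its counts were too low. It had 11, 2, 1 and 1 counts in F187, F325, F331 and F368 and 7, 4, 9, 3 and 0 counts in M351, M408, M9, M624 and M664. The 3 highest tumors, M9, F187 and M351 with 7.17, 4.34 and 4.31 CPM, were all libraries with satellite reads, and background reads of 2.26, 1.29 and 2.04 were expected there. The 0 counts of M664 allow a level of up to 0.130 CPM (3 counts, counting error only). The exact permutation test gave p = 0.587.

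The list around Fgf23 holds genes that process it or carry its signal, and also Enpp1 and Vdr. Of its 7 tested genes, 1 was called lower and none higher by edgeR. It was Galnt3, whose product glycosylates Fgf23 and protects it from cleavage, with a log2 fold change of -2.48 (standard error 0.62, edgeR adjusted p = 0.0453). Galnt3 had 58.1 to 221 CPM in p53-driven and 2.78 to 41.9 CPM in Myc-knockin tumors, again with M624 lowest. All 7 log2 fold changes were negative, with a median of -0.44, and 2 of the 7 had an unadjusted p under 0.05. DESeq2 called 2 of them lower and limma-voom 1. The co-receptor gene Kl, Fgfr4 and the vitamin D hydroxylase genes Cyp24a1 and Cyp27b1 were too low to be tested.

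Sost was close to the floor in most tumors and was not tested by edgeR. It had 3, 1, 16 and 5 counts in F187, F325, F331 and F368, or 1.18, 0.0778, 1.38 and 0.608 CPM. The counts in M351, M408, M9, M624 and M664 were 12, 4, 3, 10 and 180, or 7.39, 0.733, 2.39, 0.381 and 7.77 CPM. M664, at 180 counts, stood furthest above the floor and its expected background of 0.0851 reads. F331 and M624, at 16 and 10 counts, also lay above the floor, with 0.0765 and 0.0851 reads expected as background. In M351 2.32 and in M9 2.57 reads were expected as background. The groups overlapped, and the exact permutation test gave p = 0.175.

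None of the 8 tested genes of the sclerostin and Wnt co-receptor list was called in either direction by edgeR, DESeq2 or limma-voom, and none had an unadjusted edgeR p under 0.05. Ctnnb1, which encodes β-catenin, had a log2 fold change of 0.13 (standard error 0.42). Lrp6, a co-receptor that sclerostin binds, had 2719 CPM in M408 and 59.8 to 253 CPM in the other tumors.

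Pdpn, the mucin-type protein of early osteocytes, lymphatic endothelium and other cells, varied 12.4-fold among p53-driven and 21.0-fold among Myc-knockin tumors. It had 6.32, 14.4, 7.18 and 78.3 CPM in F187, F325, F331 and F368. In M351, M408, M9, M624 and M664 it had 24.0, 111.7, 9.56, 21.3 and 5.31 CPM. F368 and M408 stood far above the other tumors of their genotype, and M624, lowest for 5 of the 9 genes, was not low for Pdpn. For the groups the log2 fold change was 0.38 (standard error 0.94, 95% interval -1.69 to 2.44, edgeR adjusted p = 0.832), and it was -0.80 without M408. Lymphatic endothelial markers summed to 19.8 to 33.1 CPM in p53-driven and 9.41 to 72.5 CPM in Myc-knockin tumors, with Ccl21a at 0 in every tumor, and their part in the level of Pdpn was not tested. None of the 8 tested partners of podoplanin was called by edgeR, although limma-voom called 1 lower and 3 had an unadjusted edgeR p under 0.05. Msn, which encodes the cytoskeletal linker moesin, had a log2 fold change of -0.77 (edgeR adjusted p = 0.154), and Cd44, a receptor shared with osteopontin, -0.87 (edgeR adjusted p = 0.186).

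The spread between tumors was the main feature of Ibsp, Dmp1 and Phex. The SD of log2 CPM among the Myc-knockin tumors was 2.64 for Ibsp, 3.13 for Dmp1 and 3.59 for Phex, which placed them at the 98.1, 99.4 and 99.7 percentiles of the SDs of all tested genes. Among genes of similar mean level they stood at the 84.6, 99.7 and 99.8 percentiles, with only 13 such genes for Ibsp. Among the p53-driven tumors the SDs were 1.04, 1.33 and 1.06. The median SD of all tested genes was 0.785 in the Myc-knockin and 0.396 in the p53-driven tumors. For Fam20c the SDs were 0.58 and 0.67. A wide spread was not particular to Ibsp, Dmp1 and Phex. Mepe had SDs of 2.56 in Myc-knockin and 2.02 in p53-driven tumors, at the 97.7 and 98.0 percentiles of all tested genes. M624 carried most of the spread of Ibsp, Dmp1 and Phex. M664, the Myc-knockin library that shared its low Rn7sk, had 431-fold more Phex, 84.1-fold more Ibsp, 76.5-fold more Dmp1, 5.99-fold more Spp1 and 2.43-fold more Fam20c. M624 had the most counts of all tumors.

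Across the 9 tumors, log2 CPM of Dmp1 and Phex had a Pearson r of 0.95 and a Spearman rho of 0.78. Without M624, r was 0.62. For Dmp1 and Ibsp, r fell from 0.82 to 0.051 without M624, and for Ibsp and Phex from 0.84 to -0.068. The likeness of Ibsp to Dmp1 and Phex therefore rested on M624. Dmp1 and Fam20c had r values of 0.84 over all tumors and 0.77 without M624. These values describe 9 libraries that share genotype and depth differences, and no test was made of them.

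Genes with the most similar pattern to tested genes other than Pdpn were looked for among 9533 genes with a mean of at least 10 CPM. For Spp1 these were Kifbp (r = 0.97), Angpt2 (0.89) and Enpp1 (0.88), the last of which makes pyrophosphate, an inhibitor of mineralization. Their r values without M624 were 0.95, 0.85 and 0.83. For Ibsp they were Chst15 (r = 0.97), Zfp365 (0.96) and Entpd3 (0.95), with r values of 0.89, 0.94 and 0.77 without M624. For Dmp1 they were Jak2, Cp and Relch (each r = 0.96), with r values of 0.76, 0.88 and 0.86 without M624. The genes closest to Phex, Dapk2 (r = 0.97), Vcam1 (0.95) and Phlpp1 (0.95), dropped to r values of 0.62, 0.38 and 0.38 without M624. Fam20c was closest to Lims1 (r = 0.97), Abca3 (0.96) and Mme (0.95), which had r values of 0.95, 0.94 and 0.92 without M624. Mepe was closest to Armt1 (r = 0.91), Nsa2-ps1 (0.91) and Eif3e (0.88), with r values of 0.92, 0.90 and 0.96 without M624. These genes were picked as the highest of 9533 r values over 9 tumors, so high r values follow from the selection.

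The osteoblast state of each tumor was read from 13 osteoblast markers, among them Runx2, Sp7, Col1a1 and Alpl, which are all present in every p53-driven tumor. Their mean log2 CPM was 8.24 to 8.74 in p53-driven tumors and 6.83, 5.23, 7.29, 4.20 and 7.65 in M351, M408, M9, M624 and M664. Of the 13 markers, 2 were called lower and none higher by edgeR. DESeq2 and limma-voom each called 5 lower, 6 were lower at an unadjusted edgeR p under 0.05, and 12 of the 13 log2 fold changes were negative. The calls of edgeR were Bglap2 and Bglap, copies of the osteocalcin gene whose reads cannot be told apart with certainty, with log2 fold changes of -5.42 and -5.34 (standard errors 1.13 and 1.05, edgeR adjusted p = 0.0288 and 0.0260). M624 was lowest for the mean, and its Runx2, a gene named after its values were seen, was 9.18 CPM, while the rest of that group lay between 132 and 194 CPM. M408 had the next lowest mean but held Ibsp, Dmp1 and Phex at 1018, 95.6 and 145 CPM. Low osteoblast markers and low SIBLING transcripts thus coincided in M624 but not in M408.

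**Figure D4:**
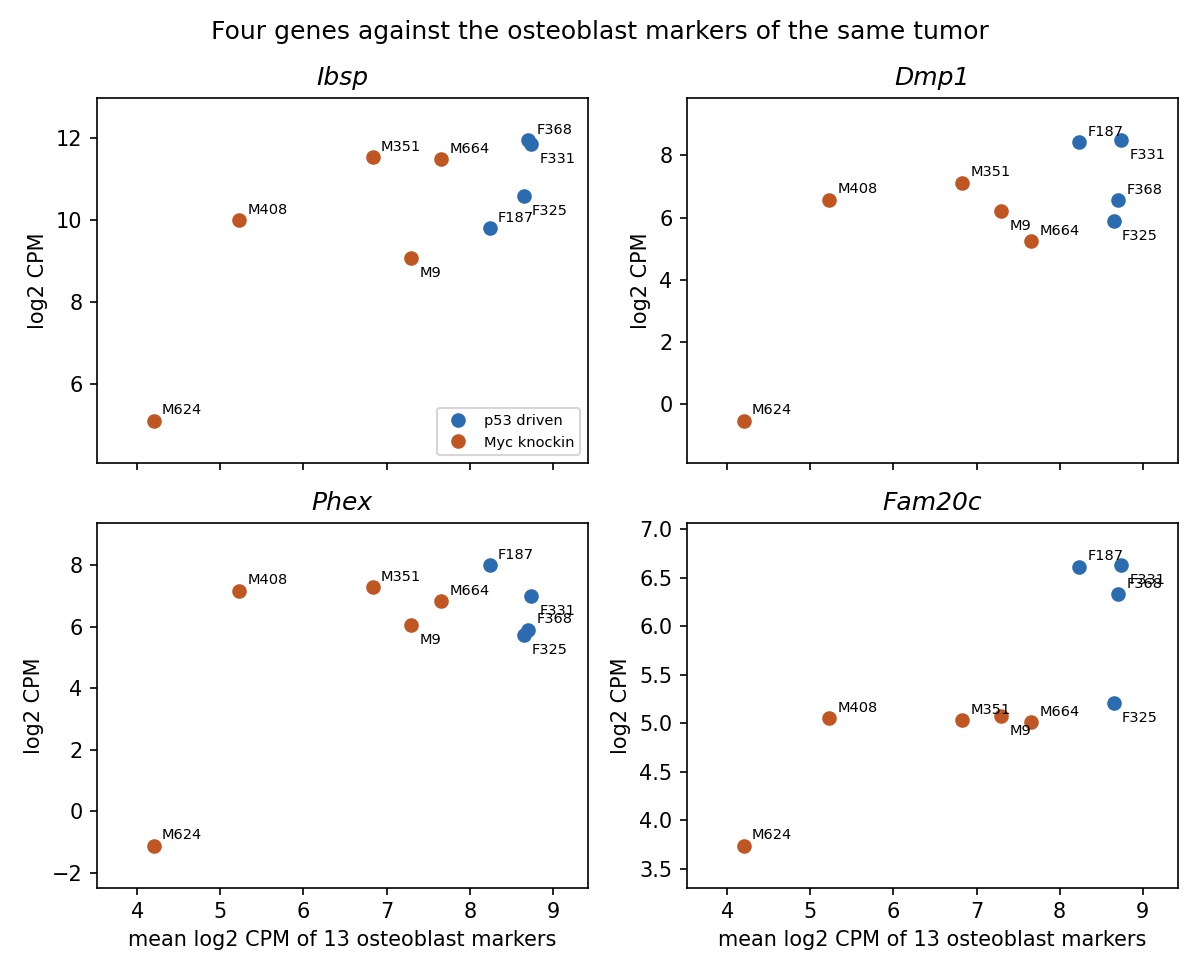
Log2 CPM of Ibsp, Dmp1, Phex and Fam20c against the mean log2 CPM of 13 osteoblast markers in the same tumor, with each point a tumor, p53 driven in blue and Myc knockin in orange. M408, with an osteoblast mean of 5.23, keeps Phex beside the tumors of higher means, whereas M624, at 4.20, lies far below for Ibsp, Dmp1 and Phex. For Fam20c M624 lies 2.43-fold below M664, the next lowest tumor.

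Relative to this osteoblast mean, 1 of the 9 genes, Sost, did not overlap between the groups. Of all tested genes, 48.1% did not overlap on this scale (48% higher and the rest lower in Myc-knockin tumors), so the count of 1 in 9 lies below the background and is no result about these genes. For Sost the difference of log2 values was -8.85 ± 1.24 (SD, n = 4) in p53-driven and -4.97 ± 0.75 (SD, n = 5) in Myc-knockin tumors, a gap of 3.88 (exact permutation p = 0.0159, 1 of 9 comparisons made). Mepe and Fgf23 also stood higher relative to the mean, by 5.34 and 3.22 (exact permutation p = 0.0317 for each), with overlap. The mean itself was 2.34 lower in the Myc-knockin tumors, so a gene with equal CPM in both groups would be higher by that much on this scale. With background subtracted, the groups overlapped for each of the 9 genes. For Dmp1 the gap was -0.07 (exact permutation p = 0.968), for Ibsp 0.73 (0.460), for Phex 0.92 (0.571), for Fam20c 0.93 (0.238), for Spp1 1.45 (0.206) and for Pdpn 2.72 (0.127).

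Other genes linked to the osteocyte were mostly not called. Of 12 tested, 1 was called lower and none higher by edgeR, with a median log2 fold change of -0.62, and by unadjusted p values under 0.05 there were 5 lower and 1 higher. DESeq2 called 4 lower and limma-voom 3. Of all tested genes, DESeq2 called 17.2% and limma-voom 10.8% in either direction, and 26.8% had an unadjusted edgeR p under 0.05. These shares apply to the other lists as well. The called gene was Mmp14, the membrane protease that osteocytes need to extend dendrites, with a log2 fold change of -1.79 (standard error 0.43, edgeR adjusted p = 0.0412). Mmp14 had 835 to 1153 CPM in p53-driven and 110.2 to 490 CPM in Myc-knockin tumors. Its p53-driven and Myc-knockin tumors did not overlap, unlike those of Dmp1 and Phex.

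Of 9 receptor genes for SIBLING proteins, 1 was called lower and none higher by edgeR, while DESeq2 called 2 and limma-voom 1 lower and 4 were lower at an unadjusted edgeR p under 0.05. The edgeR call was Itgav, the αv integrin subunit that binds the RGD motif of osteopontin and bone sialoprotein. Its level was 484 to 807 CPM in p53-driven and 52.5 to 153 CPM in Myc-knockin tumors, with a log2 fold change of -2.50 (standard error 0.38, edgeR adjusted p = 0.0175). The subunit genes Itgb1, Itgb3 and Itgb5 had log2 fold changes of -0.52, -1.73 and -0.71 and were not called. Osteoclasts carry αv integrin too, and 8 of 12 osteoclast markers were called lower, led by Dcstamp (-5.02) and Oscar (-4.68). Of 12 macrophage markers, 3 were called lower, Csf1r (-2.47) and Cd68 (-2.27) among them, and 9 were not called. The macrophage log2 fold changes were negative for 9 markers and positive for 3, with C1qa at 0.17 and C1qb at 0.56. The part of osteoclasts and macrophages in the level of Itgav was not tested.

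None of the 7 tested genes for enzymes that cleave or dephosphorylate SIBLING proteins was called by edgeR, whereas DESeq2 called 2 lower, limma-voom called 3 lower and 3 had an unadjusted edgeR p under 0.05. Mmp9 and Acp5, which are abundant in osteoclasts, had log2 fold changes of -2.92 (edgeR adjusted p = 0.0902) and -3.71 (0.0576). All 6 tooth matrix genes, Dspp and Odam among them, were too low to be tested.

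Markers of other cell types were set beside these genes. Of 8 chondrocyte, 6 endothelial, 4 lymphatic endothelial, 6 muscle and 2 keratinocyte markers tested, edgeR called none, and the only call by DESeq2 or limma-voom was 1 chondrocyte marker, higher in DESeq2. By unadjusted edgeR p values under 0.05, 3 chondrocyte markers and 1 endothelial marker passed. Of those 3 chondrocyte markers, Col2a1 was lower and Col9a1 and Col10a1 higher, and the median of the list was 0.23. Col2a1, the cartilage collagen, had 2566 CPM in F331, 0.778 to 7.90 CPM in the other p53-driven tumors and 11.4 to 40.5 CPM in the Myc-knockin tumors. Its log2 fold change was -4.31 (edgeR adjusted p = 0.146), although each p53-driven tumor other than F331 lay below every Myc-knockin tumor. Dmp1 and Fam20c stood at similar levels in F331 (361 and 99.0 CPM) and in F187 (345 and 98.0 CPM), where Col2a1 was low. Hapln1, the cartilage link protein gene, had a log2 fold change of -0.99. The endothelial genes Cdh5 and Pecam1 had log2 fold changes of -0.75 and -0.42 and the lymphatic list's Flt4 and Reln 0.36 and 1.86. The muscle genes Ttn and Acta1 had -1.11 and -0.69, and the keratinocyte genes Trp63 and Krt14 -0.25 and 2.85. Muscle markers summed to 12187 CPM in F325, the p53-driven tumor with the least Spp1, Dmp1, Phex and Fam20c, and to 6421 CPM in M408, against at most 1419 CPM elsewhere. The part of admixed cartilage or muscle in these levels was not tested.

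The genes around the SIBLING cluster were examined in the same fit. Of 23 genes in and near it, 12 were tested and 1 was called, Hsd17b11, a steroid dehydrogenase gene before Dmp1, with a log2 fold change of -1.18 (standard error 0.29, edgeR adjusted p = 0.0434). Sparcl1, a matricellular relative of osteonectin that flanks the cluster, had a log2 fold change of -0.83 (edgeR adjusted p = 0.117) and Pkd2, the polycystin gene past Spp1, -0.95 (0.0780). Nudt9, Klhl8 and Thoc2l had log2 fold changes of 0.24, 0.01 and -0.15. Within the cluster, Mepe was estimated upward and Dmp1, Ibsp and Spp1 downward, and none of the 4 was called.

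**Figure D5:**
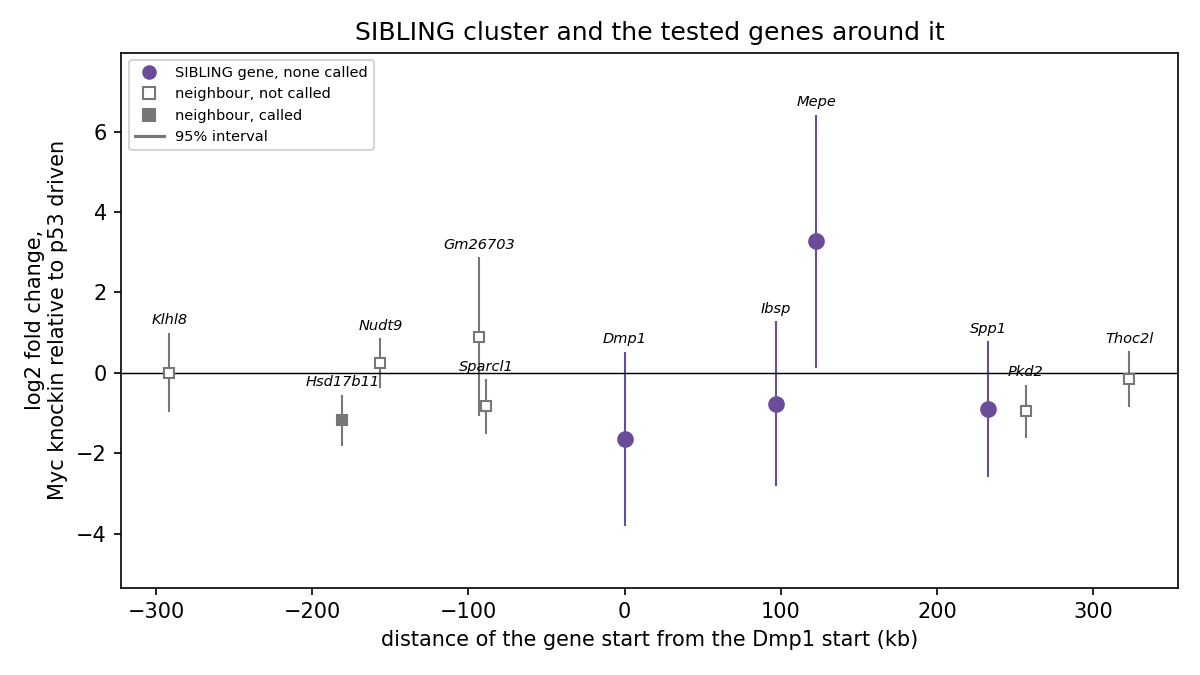
Log2 fold change of Myc-knockin relative to p53-driven tumors, with 95% intervals from edgeR, against the distance in kb from the start of Dmp1 to the start of each tested gene in and around the SIBLING cluster. Circles are SIBLING genes, squares are neighbors, and the filled square is Hsd17b11 (-1.18), the called neighbor. Gm42793, which shares exon bases with Spp1, is left out.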

How the data were processed

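RNA from whole tumors was extracted with the QIAGEN RNeasy Plus Mini kit, enriched with oligo-dT probes and sequenced as stranded paired-end libraries on an Illumina NextSeq. The authors used Trim Galore, STAR (genome mm10) and featureCounts, and the deposited values are raw counts per gene. Their strand setting and handling of multiply mapped reads are not given in the sources used here. Counts were fitted in R 4.3.3 with edgeR 4.0.16 (TMM, filterByExpr with a minimum count of 10, glmQLFit and glmQLFTest, no covariates), and p values were adjusted over all 15365 genes tested. Log2 CPM used a prior count of 2. Exon lengths came from GENCODE, which held 55034 of the table's identifiers. Single values were compared by two-sided exact permutation over 126 arrangements. The alternatives were upper-quartile scaling, library size alone, other count filters, DESeq2 1.42.0, limma-voom with sample quality weights (limma 3.58.1), removal of satellite genes, subtraction of background estimated from 1779 chemosensory receptor genes, and libraries left out. An adjustment over the 9 genes alone had been planned for the values relative to osteoblast markers and is not given. Floors and expected background cover counting error only, and the intervals of edgeR include the spread between tumors. The genes and lists were chosen with earlier results of these data known. From each list, the called genes with the 2 largest log2 fold changes in each direction are named, or, where none was called, the 2 most abundant, together with the 3 genes most similar to each tested gene (for Pdpn these are not reported here), and other genes were named after their values were seen.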

Additional observations from a re-analysis of the deposited data

Results flagged for a closer look

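Each of 36 groups of values (9 genes, 2 genotypes, CPM and log2 CPM relative to the osteoblast markers) was examined for a tumor far from the others by Dixon's ratio, and 7 stood out. The rule flags about 1 in 20 groups only where values are normally distributed, which CPM need not be. Both scales also use the same tumors, so the 7 flags cannot be set against that rate. For Fam20c, M624 at 13.2 CPM lay below the other Myc-knockin tumors. For Pdpn, F368 at 78.3 CPM and M408 at 111.7 CPM lay above the others of their genotype. For Mepe, F331 at 3.55 CPM lay above the other p53-driven tumors. For Fgf23, F187 lay high among p53-driven tumors at 4.34 CPM and, relative to the osteoblast markers, at -6.06 on the log2 scale, and M664 lay low among Myc-knockin tumors at -10.02 on that scale.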

How the results depend on the processing

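One of the 9 genes, Fam20c, was called lower, and the count was 0 under upper-quartile scaling, limma-voom, library size alone, a filter of 1 count, removal of satellite genes, and without M624 and M664 or the 4 libraries with satellite reads. Leaving out single tumors, it ranged from 0 to 1, and Fam20c remained called only without M9. Leaving out F325, F331 or F368 left 8, 6 and 5 genes called in the whole table, against 809 with all tumors. The calls of Mmp14, Fam20b, Galnt3 and Hsd17b11 (edgeR adjusted p = 0.0412, 0.0411, 0.0453 and 0.0434) also lay near the threshold. Their values in the alternatives are not given here. The whole table had 2646 calls in DESeq2, 1663 in limma-voom and 136 with library size alone, and 57.0% of the calls were lower, against 35.5% with upper-quartile scaling. Library size alone moved the median log2 fold change of all genes from 0.14 to 0.03. The count called higher was 0 in every alternative. The count of genes without overlap, 1 as reported (Fam20c), was 0 with upper-quartile scaling, library size alone or background subtracted, 2 without the 4 libraries with satellite reads (Dmp1 and Fam20c), and 1 to 1 with each tumor left out. Relative to the osteoblast markers the count, 1 as reported (Sost), was 2 with library size alone (Mepe and Sost), 2 without M624 and M664 (Sost and Fgf23), 3 without the 4 libraries with satellite reads (Spp1, Mepe and Sost), 0 with background subtracted, 2 against Col1a1 and Col1a2 alone (Mepe and Sost), and 1 to 2 with each tumor left out. For these alternatives the share of all genes without overlap was not computed, and groups separate more readily when fewer tumors are left. The changes in both counts are therefore no result about these genes. The log2 fold change of Phex turned to 0.032 without M624 and M664 and ranged from -0.63 to 0.23 with each tumor left out, turning positive without F187 or M624. That of Pdpn turned to -1.29 without the 4 libraries with satellite reads and ranged from -0.80 to 1.85. The causes were not tested. The other genes kept their direction in every alternative in which they were tested, 15 for Mepe and 19 for each of Spp1, Ibsp, Dmp1 and Fam20c. Mepe failed the count filter when M351, M408 or M664, its highest tumors, was left out singly. Its direction was therefore not examined in the fits that could most have changed it. No paired analysis was possible because the table's columns carry no replicate numbers. Depth limits Mepe, Sost and Fgf23, for which the floor of M9 and M351, 2.39 and 1.85 CPM, lies above most values of the p53-driven tumors.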
